A study of Mus musculus with 10 samples.

Results

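The regions described here are the 2803 peaks that the peak annotation places in the 3' untranslated region (3' UTR) of a gene, out of 108253 peaks in all, or 2.59%. They were taken by their annotation alone, with no use of the signal. The signal is that of CUT&Tag, in which an antibody brings a transposase to a modified histone so that the sequenced fragments mark where the modification lies. Retinas of wild-type C57BL/6J mice at postnatal day 28 were freed of sclera and pigment epithelium, kept in culture at 5 mM or 25 mM glucose for 48 hours and dissociated, with 500000 cells per assay. Lactylation of histone H3 lysine 18 (H3K18La) was profiled in 3 libraries at each glucose level. Acetylation of H3 lysine 27 (H3K27Ac) was profiled in 2 at each, and all were placed by the labels in 1 batch. The labels do not say which libraries came from separate animals, so the spread between libraries may be partly technical. An explant is cut off from its blood supply and from the pigment epithelium. Within a mark, the groups differ by design in the glucose of the medium.

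The 3' UTR is the stretch of an mRNA between the stop codon and the poly(A) tail, where microRNAs and RNA-binding proteins act on stability, localisation and translation. At the DNA level the same stretch is the last part of the transcribed unit, and polymerases run through it before the transcript is cut at the polyadenylation signal. H3K27Ac is a mark of active promoters and enhancers, which can also lie inside or just behind genes. H3K18La is a modification derived from lactate, the product of glycolysis, a pathway on which rod photoreceptors rely heavily.

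The annotated end of a host transcript, the gene model whose 3' UTR a peak overlaps, lay inside 817 of the peaks. Ends of protein-coding transcripts were searched for the polyadenylation hexamer AATAAA in the 50 bases before the end, on the transcript strand only. The hexamer stood in 32.3% of the 1355 ends that lay inside 3' UTR peaks and in 38.8% of all 52170 ends of GENCODE M21. With ATTAAA added, the shares were 40.0% and 48.2%. The stretches below, of 30 bases each, are read from the RefSeq GRCm38.p6 genome and printed 5' to 3' on the transcript strand. Of 17 named peaks that held a transcript end, they show the 7 with AATAAA before a coding end of the named gene, and 10 had none there. Capitals mark the hexamer.
Rcvrn, chr11:67703302-67703331, plus strand: taagcaggttccAATAAAtgcaaaaggagt
Acvrl1, chr15:101145301-101145330, plus strand: tagtaggtcttcAATAAAccatgtttgacc
Rps6ka2, chr17:7259355-7259384, plus strand: ctgtcaaacaatAATAAAaaaagatcaaaa
Foxo3, chr10:42247445-42247474, minus strand: ttttaatgtcctAATAAAaccttaaaagca
Bsn, chr9:108096034-108096063, minus strand: ctgtggtatcagAATAAAaggacttgatat
Angel1, chr12:86700508-86700537, minus strand: aacgtttttccaAATAAAggcttaccatgc
2610528A11Rik, chr14:37102150-37102179, minus strand: gataccaaaagaAATAAAccataaatcagc
In the Rcvrn peak the hexamer began 20 bases before the annotated transcript end, and in the Foxo3 peak 32 bases before it.

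The annotation was checked against GENCODE M21 on the same build. Of the 2803 peaks, 2599 overlapped a 3' UTR there and 204 did not, and 1943 overlapped a 3' UTR of a protein-coding transcript. Another 656 overlapped only 3' UTRs of other transcripts, such as targets of nonsense-mediated decay, whose 3' UTRs can lie far upstream of the main transcript end. Most peaks reached beyond the 3' UTR. The median share of a peak's bases inside a 3' UTR was 43.1%, and 731 peaks lay wholly inside. The peaks were 225 to 4843 bp wide with a median of 813 bp, against 757 bp for all peaks. Their median GC content was 52.5%, between the 48.7% of the other peaks outside promoters and the 57.5% of promoter peaks. CpG dinucleotides stood at 0.231 of the number that base composition predicts, against 0.181 in the other peaks outside promoters and 0.596 in promoter peaks.

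The peaks carried 2331 gene identifiers, and 356 of these genes had more than 1 such peak. The gene named was the one whose 3' UTR was overlapped for 2521 peaks and another gene for 78. Fgfr2 shows how the named and the overlapped gene can differ. Its 8 peaks spread over 2.25 Mb of chromosome 7, from 130510290 to 132760630, and in GENCODE M21 they overlapped 3' UTRs of Ate1, Fam53b, Lhpp, Nsmce4a and Tacc2. Another peak lay in the last exon that 22 genes of the protocadherin gamma cluster share, and another in that of 13 protocadherin alpha genes, so that no single gene can be given for either. The start of another gene was nearer than that of the gene named for 1096 peaks, and the median gap to the nearest start of a protein-coding transcript was 12182 bp. Below, a gene name says only which gene the annotation gives.

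The peak set was built by the authors from H3K18La peaks of developing retinas. H3K27Ac therefore was read in regions chosen for the other mark, and 3' UTRs with H3K27Ac alone are not in the set. The RPKM denominators, which stand in for library size, were 1358008 to 7424470 reads. Coverage was low: for H3K18La the median 3' UTR peak had 1 to 3 reads at low and 3 to 5 at high glucose, and for H3K27Ac 5 and 10 at low and 17 in either library at high glucose. Between 1.96% and 38.4% of the 3' UTR peaks held 0 reads in a library. The retina was recognisable by its promoters: the summed RPKM at the promoters of 7 rod markers was 11.7 to 15.3 and 56.0 to 137.9 for H3K18La at 5 and 25 mM, and 47.8 to 85.7 and 227 to 412 for H3K27Ac. For 7 of 8 Müller glia markers with a promoter peak (Aqp4 had none) it was 6.51 to 7.98 and 13.3 to 18.4 for H3K18La and 15.6 to 19.0 and 34.3 to 41.2 for H3K27Ac. The rod and Müller glia sums were higher in every 25 mM library than in every 5 mM library of the same mark, and their part in the results below was not tested. Of 5 pigment epithelium markers Rpe65, Lrat and Ttr had no promoter peak, and Best1 and Rlbp1, the latter also a gene of Müller glia, had one. Their sum was 0 to 2.60 and 2.03 to 6.04 for H3K18La, which overlap, and 3.11 to 5.991 and 9.35 to 12.4 for H3K27Ac, which do not. Of 6 microglia markers 1 had a promoter peak. In such bulk libraries, fewer cells of a type and less signal per cell cannot be told apart.

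The first question was how much signal 3' UTR peaks carried beside other peaks of the same library, a comparison that no scaling between libraries can change. For H3K27Ac the 3' UTR peaks were richer than the other peaks outside promoters in all 4 libraries. For H3K18La they were slightly poorer in all 6 by the measure below, a direction that depended on the reference class and the measure. The measure was the log2 ratio of reads per kb in 3' UTR peaks to reads per kb in the 88306 other peaks outside promoters, here called the contrast. It was -0.04, -0.10 and -0.08 in the H3K18La libraries at 5 mM and -0.01, -0.13 and -0.14 at 25 mM. As a difference of mean log2(RPKM + 0.5), replicate 1 was instead above 0 at both glucose levels (0.0076 and 0.043). Replicate 1 at 25 mM was also above 0 against coding-exon peaks (0.0014), for peaks more than 5 kb from the listed start (0.014) and for those of protein-coding transcripts (0.021). In the H3K27Ac libraries it was 0.39 and 0.46 at 5 mM and 0.52 and 0.50 at 25 mM. The marks did not overlap at either glucose level. The difference between marks was 0.50 at 5 mM and 0.61 at 25 mM, each with p = 0.1 in an exact two-sided permutation test, the smallest p that 3 against 2 libraries allow, and an adjusted p of 0.2 over the family of 6 tests. With the marks permuted within each glucose level over all 10 libraries, an alternative chosen after seeing the data, the difference was 0.55 with an exact p = 0.01, the smallest that the 100 arrangements can give.

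The reference class mattered for the size of the contrast. Against coding-exon peaks, H3K27Ac in 3' UTR peaks was 0.21 to 0.28 higher on the log2 scale, and against later-intron peaks 0.27 to 0.46 higher. Against intergenic peaks it was 0.88 to 1.12 higher. First-intron peaks had nearly the same H3K27Ac level, with log2 ratios of -0.03 to 0.00. Promoter peaks were richer, with log2 ratios of -0.88 to -0.36. For H3K18La the log2 ratios ran from -0.07 to 0.00 against coding exons, from -0.22 to -0.07 against later introns and from -0.31 to -0.17 against first introns. Against intergenic peaks the H3K18La ratio was above 0 in all 6 libraries, at 0.0015 to 0.18. Against promoters the H3K18La ratio was -0.17 in 25 mM replicate 1 and 0.02 to 0.17 in the other 5 libraries. Against first introns, a reference chosen after seeing the data, the difference between marks was smaller, at 0.22 with an exact permutation p = 0.01 over the 10 libraries.

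**Figure D1:**
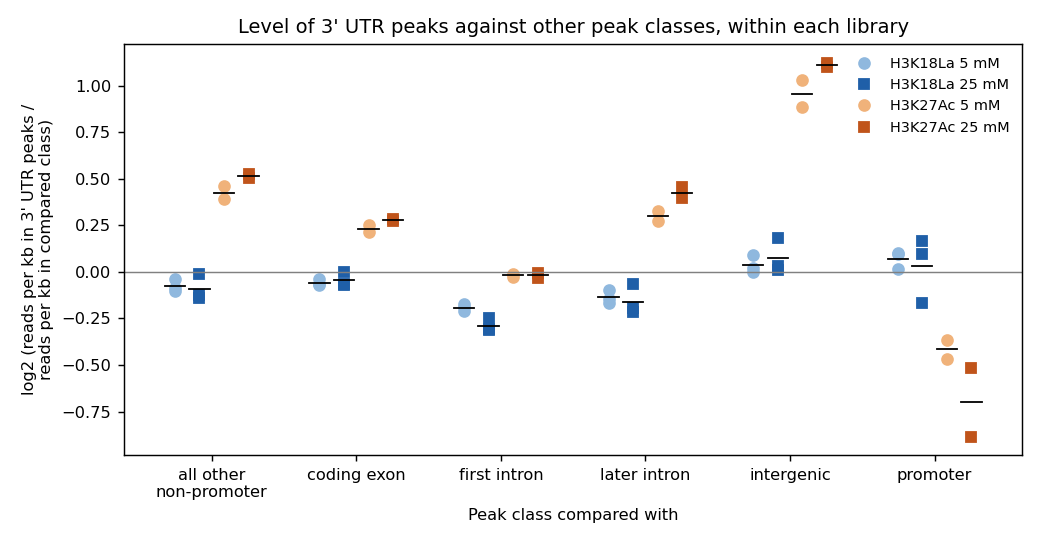
Log2 ratio of reads per kb in 3' UTR peaks to reads per kb in each other peak class, with 1 point per library and a bar at the group mean. H3K27Ac libraries lie between 0.88 and 1.12 against intergenic peaks and between -0.88 and -0.36 against promoter peaks, while H3K18La libraries stay between -0.31 and 0.18 throughout.

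Position within and around the gene divided the 3' UTR peaks. H3K18La was poorest in those close to a start of a protein-coding transcript, under 2 kb in 5 of 6 libraries and at 2 to 5 kb in replicate 3 at 5 mM. In the 284 peaks under 2 kb from a start, the H3K18La contrast was -0.56 to -0.26, and it was -0.31 to -0.13 at 2 to 5 kb and -0.20 to -0.02 at 5 to 10 kb. It was -0.02 to 0.11 at 10 to 30 kb and -0.06 to 0.05 in the 665 peaks at least 30 kb away. H3K27Ac followed another course. Its contrast was 0.38 to 0.67 under 2 kb, 0.44 to 0.61 at 2 to 5 kb, 0.46 to 0.65 at 5 to 10 kb and 0.50 to 0.61 at 10 to 30 kb. At 30 kb or more it was 0.12 to 0.16, lower than in every nearer group in each library. The marks still differed there, by 0.14 with an exact permutation p = 0.01 over the 10 libraries, and in the peaks of protein-coding transcripts they differed by 0.54 with the same p. Both restrictions were chosen after seeing the data. The marks did not overlap in either, so this p is the smallest that the 100 arrangements can give. It adds nothing to that separation.

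Peaks that held a transcript end carried more of both marks than those that did not. In the 817 peaks with an end, such as those of Rcvrn, Acvrl1 and Foxo3 whose hexamers are printed above, the contrast was 0.02 to 0.20 for H3K18La and 0.56 to 0.77 for H3K27Ac. In the 1782 peaks without one it was -0.27 to -0.15 and 0.29 to 0.34. Within 10 kb of a start the H3K27Ac contrast was 0.61 to 0.91 with an end and 0.30 to 0.41 without, and farther away 0.51 to 0.64 and 0.28 to 0.34. Peaks with an end were also wider, with a median of 1016 bp against 739 bp, and the part of width in the difference was not tested. In the 143 peaks where coding genes on both strands overlapped, the H3K27Ac contrast was 0.74 to 1.04, and CUT&Tag does not tell which strand a fragment belongs to. In the peaks with a GC content above 55.8%, the highest of 4 equal groups, the contrast was lowest for both marks, at -0.61 to -0.26 for H3K18La and 0.14 to 0.29 for H3K27Ac.

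**Figure D2:**
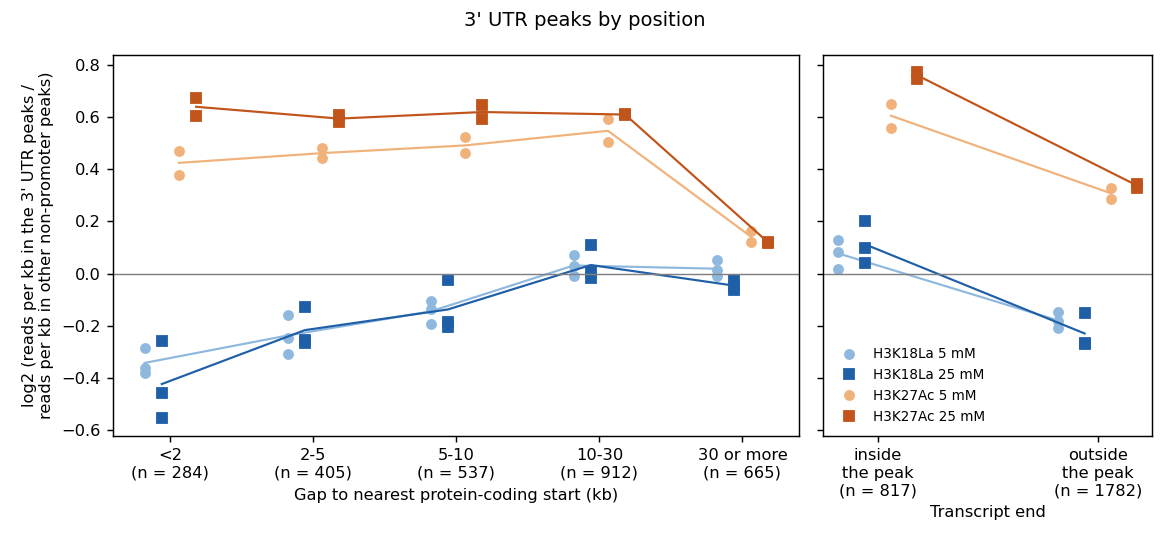
Contrast of 3' UTR peaks with other peaks outside promoters (log2) by gap to the nearest start of a protein-coding transcript (left) and by whether the annotated transcript end lies inside the peak (right), with 1 point per library and lines through the group means. By group means H3K18La is lowest under 2 kb from a start, with libraries at -0.56 to -0.26, and H3K27Ac falls to 0.12 to 0.16 at 30 kb or more.

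The second question was what glucose did to these peaks. On the deposited scale both marks were higher at 25 mM. The share of a library's reads that fell in 3' UTR peaks was 0.332%, 0.321% and 0.322% in the H3K18La libraries at 5 mM and 0.952%, 0.842% and 0.832% at 25 mM. The groups did not overlap, and the means were 0.325% ± 0.00602 and 0.875% ± 0.0665 (SD, n = 3 each), a ratio of 2.69 with an exact permutation p = 0.1, the smallest for 3 against 3, and an adjusted p of 0.2. For H3K27Ac the shares were 0.659% and 1.04% at 5 mM and 2.06% and 1.83% at 25 mM. Their ratio was 2.29 and the exact permutation p = 0.333, again the smallest the design allows. Counting error was small beside this, with 95% Wilson intervals of 0.313% to 0.332% for the shallowest library and 1.82% to 1.84% for the deepest.

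The gain was shared with the other peaks. As a share of the reads in all peaks, 3' UTR peaks took 2.70% to 2.76% of H3K18La reads at 5 mM and 2.66% to 2.72% at 25 mM, and 3.12% and 3.29% of H3K27Ac reads at 5 mM and 2.96% and 3.24% at 25 mM. On that scale the 25 mM mean was lower by 0.0436 percentage points for H3K18La (exact permutation p = 0.2) and by 0.107 for H3K27Ac (exact permutation p = 0.667). The H3K18La contrast differed by -0.02 between glucose levels with overlapping libraries (exact permutation p = 0.7). The H3K27Ac contrast was higher by 0.09 at 25 mM with no overlap (exact permutation p = 0.333, the smallest possible). A rise of all peaks against the background of the library and a change in the efficiency of the assay cannot be told apart here.

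Peak by peak, limma was fitted to log2(RPKM + 0.5) over all 108253 peaks and p-values were adjusted over all of them by the method of Benjamini and Hochberg. For H3K18La, 558 of the 2803 3' UTR peaks rose and 4 fell, so that 20.05% were called against 20.8% of all peaks. Rises alone were called in 20.6% and falls in 0.117% of all peaks. For H3K27Ac, 498 rose and 3 fell, so that 17.9% were called against 16.6% of all peaks, with 16.4% rising and 0.179% falling. Both shares are near their background. The H3K27Ac calls needed all 4 libraries: with any 1 of them left out, 0 peaks passed the adjusted threshold in limma, while 158 to 1166 3' UTR peaks had an unadjusted p under 0.05. With H3K18La replicates 1, 2 or 3 at 25 mM left out, 345, 312 and 369 peaks were called. After scaling each library to its own reads in peaks, 0 were called for either mark in limma, with 258 and 390 peaks at an unadjusted p under 0.05. All statements below that a peak rose therefore hold on the deposited scale.

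The median log2 fold change on the log2(RPKM + 0.5) scale was 0.71 for H3K18La, beside 0.76 over all peaks, and 0.70 for H3K27Ac, beside 0.58. That scale understates the change of weak peaks. Every 25 mM library stood above every 5 mM library in 1009 3' UTR peaks, or 36.0%, for H3K18La, beside 36.6% of all peaks. For H3K27Ac this held in 1783, or 63.6%, beside 53% of all peaks. Among coding-exon, first-intron, later-intron, intergenic and promoter peaks, the share called for H3K18La was 19.4%, 26.8%, 21.7%, 17.5% and 20.4%. For H3K27Ac it was 14.8%, 16.7%, 11.8%, 8.94% and 40.7% in the same order. The marks shared 262 called 3' UTR peaks, which is 46.6% of the H3K18La calls and 52.3% of the H3K27Ac calls. Over all peaks 8844 were called in both marks, or 39.4% and 49.2% of the calls, which is 8.17% of all peaks beside 9.35% of the 3' UTR peaks. The difference was not tested. The test of a different response in the marks, the interaction of glucose and mark over the 10 libraries, called 0 3' UTR peaks in limma and 0 of all peaks, with 112 3' UTR peaks at an unadjusted p under 0.05 and a lowest adjusted p of 0.971. With voom on the recovered reads it also called 0.

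**Figure D3:**
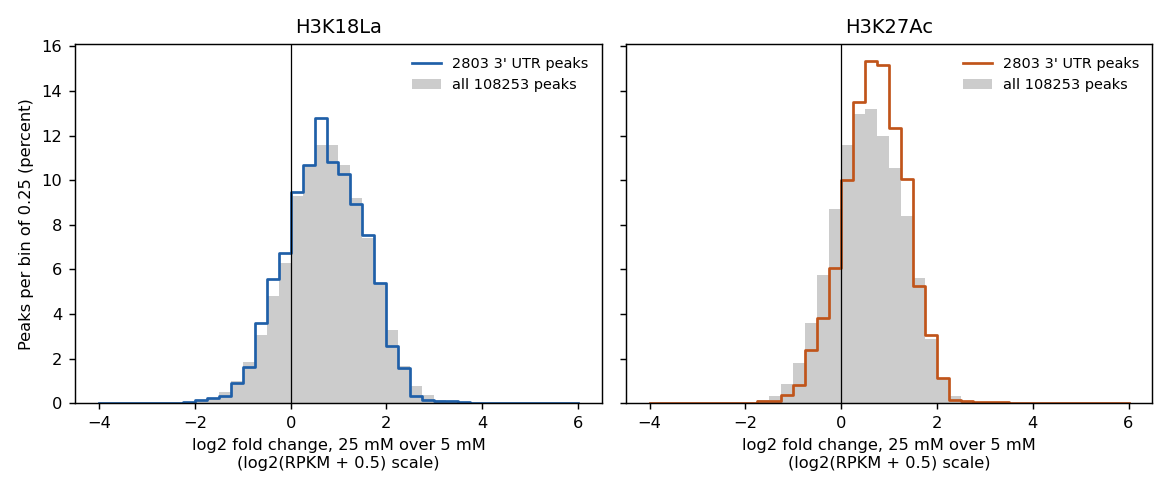
Distribution of log2 fold changes (25 mM over 5 mM) of the 2803 3' UTR peaks (line) and of all 108253 peaks (grey), in percent of peaks per bin of 0.25. For H3K18La the outlines nearly coincide, with medians of 0.71 and 0.76, and for H3K27Ac the 3' UTR peaks sit to the right, with medians of 0.70 and 0.58.

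Calls gathered in the stronger peaks. So that a peak's level in the mark tested did not set its group, the peaks were ranked by their level in the other mark. The marks shared 262 called 3' UTR peaks, so the split is not independent of the calls. Over 4 groups of equal size, from the weakest to the strongest, H3K18La was called in 8, 36, 127 and 391 peaks, and the ratio of summed reads per kb at 25 mM to 5 mM was 1.44, 1.83, 2.38 and 3.39. For H3K27Ac the counts were 45, 68, 95 and 293 and the ratios 1.71, 1.76, 1.96 and 2.58. Peaks that held a transcript end were called in 24.6% of cases for H3K18La and 22.2% for H3K27Ac, against 18.2% and 15.5% of those that did not. The 7 peaks called lower rested on few reads. They were Fbxl18, Olfr777, Ggact and Cpne5 for H3K18La and Tns1, Pax8 and Ntrk3 for H3K27Ac, named here after their values were seen. None held more than 6 reads in any library of the mark in question.

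Relative to the other peaks outside promoters in the same library, single 3' UTR peaks leaned to H3K27Ac. At 25 mM, every H3K27Ac library stood above every H3K18La library in 1132 3' UTR peaks, or 40.4%, against 17.7% of all peaks outside promoters. The reverse held in 367, or 13.1%, against 25.2%. At 5 mM the corresponding counts were 731, or 26.1% against 14.3%, and 254, or 9.06% against 15.4%.

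The largest H3K18La rises, among called peaks with separate groups and at least 10 reads in every 25 mM library, carried the names Ift122, Naaa, Trib1, Eipr1 and 2610528A11Rik. The peak in Ift122, a component of intraflagellar transport in the cilium, lay at chr6:115925296-115925728. Its H3K18La level was 2.19, 3.12 and 0 RPKM at 5 mM and 23.5, 14.8 and 14.8 RPKM at 25 mM. The groups did not overlap, with a log2 fold change of 3.39 ± 0.57 (SE) and an adjusted p of 0.00107 in limma. Without the library at 0 the log2 fold change was 2.51, and with a pseudocount of 0.1 the adjusted p was 0.0613. Its H3K27Ac level was 8.01 and 7.44 RPKM at 5 mM and 33.4 and 27.1 RPKM at 25 mM, which is a log2 fold change of 1.89 (adjusted p = 0.0158, limma).

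The peak in Naaa, a lysosomal amidase, lay at chr5:92257616-92257962, 1338 bp from a start of Ppef2. H3K18La there was 2.73, 0 and 2.12 RPKM at 5 mM and 24.9, 12.8 and 11.7 RPKM at 25 mM. That of Trib1, a pseudokinase, lay wholly within the 3' UTR at chr15:59652649-59653017, with H3K18La at 2.57, 1.05 and 0 RPKM and then 20.7, 8.66 and 10.1 RPKM. In both peaks replicate 1 at 25 mM was the highest library and the groups were separate, with log2 fold changes of 3.31 and 3.25 (adjusted p of 0.00130 and 0.00122, limma). H3K27Ac rose at Trib1, from 9.40 and 19.6 to 52.7 and 40.2 RPKM (log2 fold change 1.72, adjusted p = 0.0267, limma), while at Naaa its adjusted p was 0.0655. Eipr1, at chr12:28828667-28829070, had H3K18La at 5.87, 3.82 and 0 RPKM and then 20.1, 26.2 and 20.03 RPKM. Naaa, Trib1 and Eipr1 also each had a 5 mM library at 0, without which the log2 fold changes were 2.46, 2.54 and 2.10. With a pseudocount of 0.1 the calls of Naaa and Eipr1 were lost (adjusted p of 0.0632 and 0.108, limma). The peak of 2610528A11Rik lay at chr14:37101198-37102755, 2851 bp from the start of Cdhr1, a photoreceptor cadherin. It is wider and rests on more reads, and its H3K18La rose from 2.13, 2.11 and 0.945 RPKM to 22.5, 15.6 and 13.8 RPKM (log2 fold change 3.02 ± 0.33 SE, adjusted p = 0.000182, limma).

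The largest H3K27Ac rises, among called peaks with separate groups and at least 10 reads in every 25 mM library, were at Rps6ka2, Fcho1, Samd7, Tsix and Rab11fip4. Rps6ka2 encodes a ribosomal S6 kinase, and its peak at chr17:7258367-7259550 held the transcript end. H3K27Ac there was 1.17 and 3.4 RPKM at 5 mM and 29.2 and 14.3 RPKM at 25 mM (log2 fold change 3.04 ± 0.48 SE, adjusted p = 0.00655, limma). H3K18La rose as well, from 2.4, 3.1 and 0.622 RPKM to 19.3, 14.3 and 11.7 RPKM, with a log2 fold change of 2.75 (adjusted p = 0.000507, limma). Both marks were thus higher in every 25 mM library of this peak.

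At Fcho1, a gene of clathrin-mediated endocytosis, H3K27Ac was 1.46 and 1.02 RPKM at 5 mM and 16.7 and 7.66 RPKM at 25 mM. The Fcho1 peak, at chr8:71715601-71716233, overlapped no 3' UTR in GENCODE M21. H3K18La in the same peak was 1.5, 0.610 and 2.33 RPKM and then 0, 0.777 and 1.60 RPKM, so that its groups overlapped. The peak named Tsix, after the antisense RNA of Xist, overlapped a 3' UTR of Gm26992 in GENCODE M21. It had H3K27Ac at 0.648 and 0.752 RPKM and then 10.6 and 4.65 RPKM, and H3K18La at 0.885, 0.360 and 0.688 RPKM and then 2.38, 1.61 and 0 RPKM. The log2 fold changes were 2.78 and 2.66 for H3K27Ac at Fcho1 and Tsix, and -0.74 and 0.37 for H3K18La. The tests of the difference between marks gave adjusted p = 0.971 for both in limma. In Samd7, a Polycomb-associated repressor of photoreceptors, and Rab11fip4, an effector of Rab11, 1 library at 5 mM held 0 H3K27Ac reads. Their H3K27Ac levels were 0 and 3.67 and then 11.1 and 7.36 RPKM for Samd7, and 0 and 0.869 and then 4.25 and 4.60 RPKM for Rab11fip4. With a pseudocount of 0.1 none of these 5 H3K27Ac rises passed (adjusted p of 0.0529 for 4 and 0.107 for Samd7, limma), nor did any without 1 library. Without the library at 0 the log2 fold change was 1.195 for Samd7 and 1.85 for Rab11fip4.

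The strongest 3' UTR peaks over the 10 libraries were those of Ankrd33, Acvrl1, Mrps27, Myo1g and Sncb, with means of 29.3, 29.3, 28.4, 26.7 and 24.2 RPKM. Ankrd33, a repressor expressed in photoreceptors, lies close to Acvrl1, a receptor of the TGF-β family, and their peaks at chr15:101118534-101119088 and chr15:101145278-101146141 had similar levels. Ankrd33 had H3K18La at 6.83, 4.87 and 7.96 RPKM and then 34.8, 22.6 and 25.5 RPKM, and H3K27Ac at 18.8 and 24.1 RPKM and then 85.9 and 62.1 RPKM. Acvrl1 had H3K18La at 9.33, 6.48 and 5.11 RPKM and then 35.9, 24.2 and 25.4 RPKM, and H3K27Ac at 16.1 and 25.3 RPKM and then 81.4 and 63.4 RPKM. In both, H3K18La rose by log2 fold changes of 2.00 and 1.97 and H3K27Ac by 1.76 and 1.81.

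The Mrps27 peak, at chr13:99410080-99411392, overlapped no 3' UTR in GENCODE M21, and its nearest coding start was that of Map1b at 36228 bp. H3K18La was 7.94, 4.70 and 2.80 RPKM at 5 mM and 48.0, 23.4 and 20.03 RPKM at 25 mM. H3K27Ac was 12.3 and 19.9 RPKM and then 95.1 and 49.3 RPKM. Replicate 1 at 25 mM was the highest library in both marks, and the glucose groups were separate. The marks also rose at Myo1g, a class I myosin, with log2 fold changes of 2.66 for H3K18La and 1.67 for H3K27Ac, and at Sncb, which encodes β-synuclein, with 2.65 and 1.85. The widest peaks were those of Slc25a18, a mitochondrial glutamate carrier, at 4843 bp, Podn, a proteoglycan, at 4238 bp, and Angel1 at 4149 bp. H3K18La rose in each, by 1.36, 1.95 and 1.66 on the log2 scale, though the Slc25a18 call was lost without replicate 2 at 5 mM, replicate 1 at 25 mM or replicate 2 at 25 mM (adjusted p of 0.0588, 0.0738 and 0.0640, limma). H3K27Ac rose at Podn and Angel1, by 1.35 and 1.39, and at Slc25a18 its adjusted p was 0.0669 in limma. The Podn peak had 0.684% of its bases in a 3' UTR and lay 656 bp from a coding start of Podn.

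**Figure D4:**
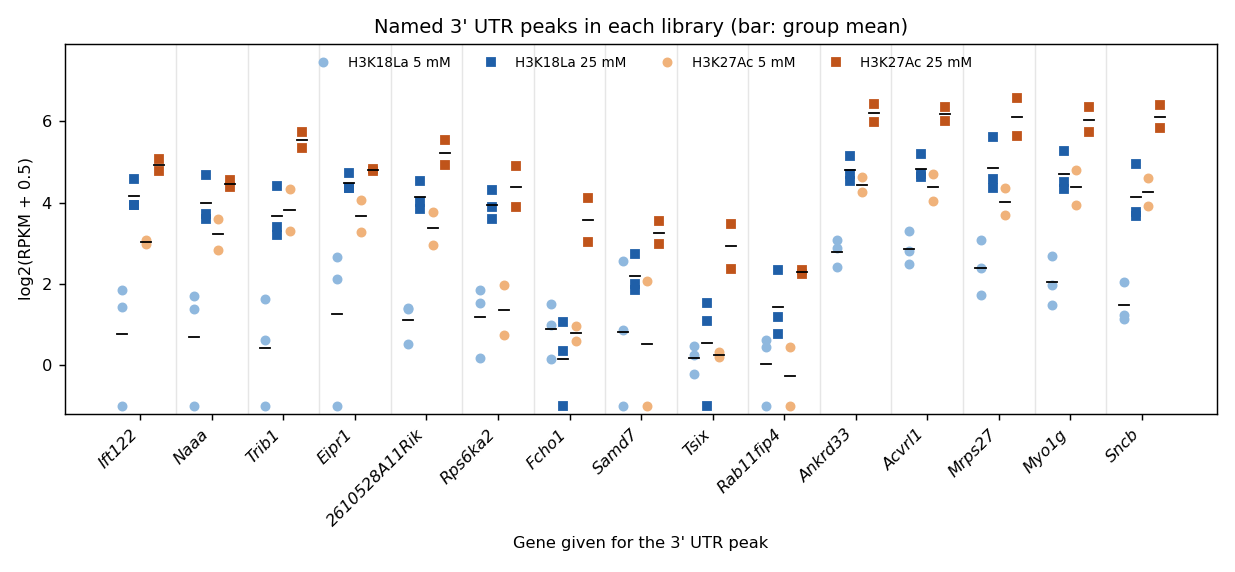
Level of the named 3' UTR peaks in each library, as log2(RPKM + 0.5), with a bar at the mean of these log2 values in each group. The lowest points, at -1, are libraries with 0 reads, and at Fcho1 and Tsix the H3K18La groups overlap while the H3K27Ac groups do not.

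Of 28 phototransduction genes listed, 7 had a 3' UTR peak, with 8 peaks in all. H3K18La rose in 3 and H3K27Ac in 3, and none fell. For comparison with this list and those below, rises were called in 20.6% of all peaks for H3K18La and 16.4% for H3K27Ac. No list was tested for an excess of calls, and calls gathered in the stronger peaks. The Rcvrn peak at chr11:67702601-67703620 spanned the end of the gene of recoverin, a calcium sensor of photoreceptors. H3K18La there was 1.86, 0.567 and 2.89 RPKM at 5 mM and 14.5, 7.23 and 11.6 RPKM at 25 mM, and H3K27Ac was 4.99 and 11.5 RPKM and then 37.9 and 27.1 RPKM. Every 25 mM library was above every 5 mM library, with log2 fold changes of 2.45 (adjusted p = 0.00135, limma) and 2.00 (adjusted p = 0.0165). At Pde6b, a subunit of the rod phosphodiesterase, neither mark passed the test, with log2 fold changes of 1.00 and 1.23 (adjusted p of 0.0993 and 0.0794, limma).

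Of 18 regulators of photoreceptor fate, 7 had a peak, and H3K18La rose in 4 and H3K27Ac in 5. Beside Ankrd33 these included Rax, a homeobox factor of the eye field, where H3K18La was 4.98, 3.38 and 2.58 RPKM and then 12.5, 11.2 and 13.0 RPKM. H3K27Ac at Rax was 13.0 and 21.1 RPKM and then 63.3 and 41.5 RPKM. The annotation rests on a retained-intron transcript, and GC content was 69.2%, far above the median. Esrrb, a nuclear receptor of rods, had H3K27Ac at 1.51 and 7.10 RPKM and then 23.2 and 16.3 RPKM, a log2 fold change of 2.35 (adjusted p = 0.0145, limma). Its H3K18La call (log2 fold change 1.58) was lost when any of 5 of the 6 libraries was left out. Of 25 genes of photoreceptor structure and cilium, 4 had a peak. H3K18La rose in 1 of them, Fscn2, an actin bundler of the outer segment (log2 fold change 1.55), and H3K27Ac in 2, Fscn2 and Rbp3, the retinoid carrier of the interphotoreceptor matrix (1.46 and 1.58). Crb1, a polarity protein, had H3K18La of 0.704, 1.43 and 2.19 RPKM and then 0, 2.19 and 1.5 RPKM, and its groups overlapped.

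Of 28 genes of glycolysis and lactate handling, 4 had peaks, 5 in all, and each mark rose in 3. Phosphofructokinase of the liver type, Pfkl, had a peak at chr10:77984112-77987070 where it overlaps 1810043G02Rik on the other strand. H3K18La was 1.76, 1.56 and 2.24 RPKM and then 8.42, 6.82 and 5.70 RPKM, and H3K27Ac was 6.49 and 9.90 RPKM and then 35.4 and 25.2 RPKM. Both rose, by 1.66 and 1.83 on the log2 scale. At Pfkfb2, which makes and breaks down the activator of phosphofructokinase, the log2 fold changes were 1.33 and 1.53. Pyruvate kinase, Pkm, catalyses the last step of glycolysis. The peak of Pkm lay 1232 bp from a start of Gramd2, with 5.68% of its bases in a 3' UTR. Its H3K18La was 1.33, 1.08 and 1.03 RPKM and then 8.21, 2.93 and 2.84 RPKM, so that replicate 1 at 25 mM stood far above the other libraries, and without it the adjusted p was 0.150 in limma. H3K27Ac at Pkm was 6.82 and 8.36 RPKM and then 28.4 and 22.3 RPKM (log2 fold change 1.67).

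Of 24 genes of glucose and energy sensing, 4 had a peak. H3K18La rose in 1, Foxo3, a transcription factor held out of the nucleus by insulin signalling, from 1.80, 1.83 and 1.40 RPKM to 3.87, 6.08 and 7.69 RPKM. H3K27Ac rose in 2, Foxo3 and the receptor gene Igf1r, by 1.37 and 1.40 on the log2 scale. At Rptor, a subunit of the mTOR complex, neither mark passed, with log2 fold changes of 1.12 and 0.73. Of 26 enzymes that add, remove or supply histone acyl groups, 5 had a peak, and H3K18La rose in 3 and H3K27Ac in 1. Acly, which makes acetyl-CoA from citrate, rose in both, with H3K18La at 3.21, 1.80 and 1.87 RPKM and then 10.3, 6.66 and 7.14 RPKM. The deacetylases Hdac5 and Hdac7 rose in H3K18La, by 2.11 and 1.2, and not in H3K27Ac (adjusted p of 0.280 and 0.100, limma). Scaled to reads in peaks, the H3K18La value of Hdac7 turned to -0.094. The difference between marks did not pass the test at either (adjusted p of 0.971 and 0.985, limma).

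Of 25 synaptic genes, 5 had a peak, and H3K18La rose in 0 and H3K27Ac in 2, Bsn and Sv2b. Bsn encodes bassoon, a scaffold of the ribbon synapse. The Bsn peak lay 487 bp from a start of Apeh, with 15.0% of its bases in a 3' UTR. Its H3K27Ac was 3.17 and 5.30 RPKM and then 12.1 and 12.2 RPKM. Its H3K18La, at 0.434, 1.41 and 0 RPKM and then 3.26, 2.48 and 1.54 RPKM, did not overlap between groups, and the adjusted p was 0.0765 in limma. At Snap25, a protein of vesicle fusion, no group stood apart, with H3K27Ac at 3.37 and 4.69 RPKM and then 5.27 and 3.93 RPKM. Of 30 RNA-binding and 3' end processing genes, 1 had a peak, Msi1, an RNA-binding protein of photoreceptors and progenitors, and both marks rose in it, by 1.71 and 1.91. Of 20 immediate early genes, Btg2 and Arc had a peak. H3K27Ac rose in both, by 1.44 and 1.80, and H3K18La in Btg2, by 1.99. Arc held 0 to 3 H3K18La reads in each library.

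**Figure D5:**
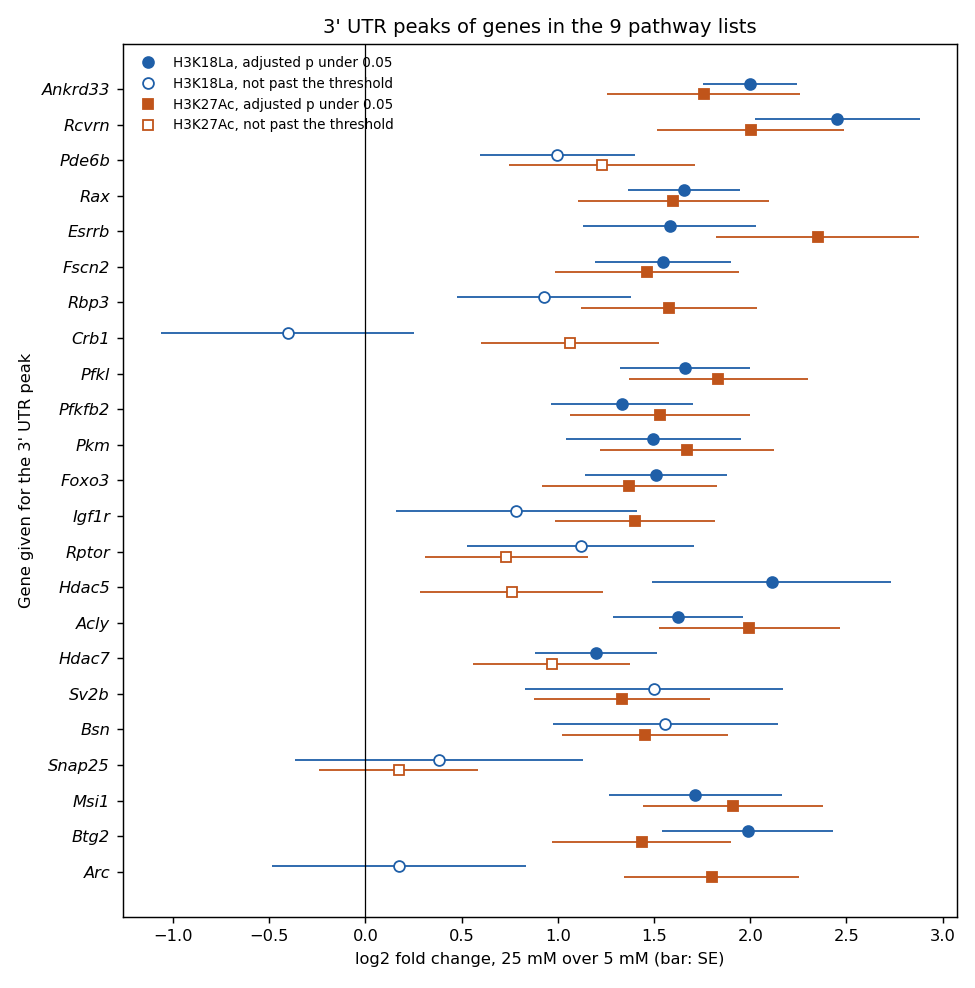
Log2 fold change (25 mM over 5 mM, log2(RPKM + 0.5) scale) with its SE for the 23 3' UTR peaks named from the 9 pathway lists, filled where the adjusted p was under 0.05. Only the H3K18La value of Crb1 lies below 0, at -0.41, and Snap25 passes in neither mark.

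Several of these H3K18La calls depended on single libraries. With 1 of the 6 left out at a time, the adjusted p in limma reached 0.104 for Pfkfb2, 0.150 for Pkm, 0.12 for Esrrb, 0.122 for Hdac5, 0.0857 for Msi1, 0.0789 for Hdac7 and 0.0645 for Foxo3. The library whose absence gave that value was replicate 2 at 25 mM for Pfkfb2, Esrrb, Hdac5, Msi1 and Hdac7, replicate 1 at 25 mM for Pkm and replicate 3 at 25 mM for Foxo3.

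A promoter peak stood beside the 3' UTR peak in 1725 of the 2331 genes. The 3' UTR peak was above its promoter in 22.7% to 43.3% of these genes in a library. The median log2 ratio of 3' UTR to promoter was -0.12, -0.15 and -0.00 in the H3K18La libraries at 5 mM and -0.73, -0.40 and -0.35 at 25 mM. For H3K27Ac it was -0.55 and -0.59 and then -1.18 and -0.76. On this scale the promoter was further ahead in every 25 mM library than in any 5 mM library of the same mark. The ratio of mean RPKM over the same pairs, with no pseudocount, kept that order more narrowly for H3K18La, at -0.22, -0.18 and -0.19 and then -0.64, -0.35 and -0.24. Over the whole peak classes rather than pairs the order held for H3K27Ac, at -0.47 and -0.36 and then -0.88 and -0.51, and did not hold for H3K18La. The H3K18La mean of 3' UTR peaks there stood above the promoter mean by 0.02 to 0.10 on the log2 scale at 5 mM and by 0.10 and 0.17 in replicates 2 and 3 at 25 mM, with -0.17 in replicate 1. H3K18La was called at both places in 182 genes, at the 3' UTR alone in 198, at the promoter alone in 337 and at neither in 1008. For H3K27Ac the counts were 221, 122, 598 and 784. The median log2 fold change was 0.72 at the 3' UTR and 1.03 at the promoter for H3K18La, and 0.75 and 1.25 for H3K27Ac.

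Several 3' UTR peaks of a gene did not always move together. D1Ertd622e had 8, of which H3K18La rose in 3 and H3K27Ac in 4, and their H3K18La log2 fold changes ran from -0.94 to 2.28. Ift122 had 7, from chr6:115882791 to 115926361, and H3K18La rose in all 7 by 1.65 to 3.39 and H3K27Ac in 6. Cit, which encodes citron kinase of cell division, had 6, and H3K18La rose in 5 and H3K27Ac in 4. Such peaks lie in neighbouring stretches of DNA and are not independent of each other.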

How the data were processed

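H3K18La and H3K27Ac were profiled by CUT&Tag in 10 libraries of cultured mouse retinas. The authors ran nf-core/cutandrun on the GRCm38 genome, merged MACS peaks of H3K18La from developing retinas, annotated them with ChIPseeker 1.34.1 on Ensembl 102 (promoter -1000 to 500 bp of a start) and deposited 1 RPKM value per peak and library, unpooled. A second deposited table holds the authors' own edgeR 3.40.2 comparison of H3K18La (fold changes, p-values and group means) and was not used. The RPKM steps gave whole reads in 100% of values within a tolerance of 0.01 reads, which gave the denominators. Whether these include window-based factors is not given in the sources used here.

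The 2803 members were the rows annotated as 3' UTR. They and all lists were chosen with earlier results of these data known. RPKM values are not counts, so limma 3.58.1 (R 4.3.3, trended and robust moderation) was fitted to log2(RPKM + 0.5) over all 108253 peaks with no filter, per mark, and for the interaction over 10 libraries, with Benjamini-Hochberg adjustment and a threshold of 0.05. Voom on the recovered reads was an alternative. Single values per library were compared by exact two-sided permutation tests. Positions were checked against GENCODE M21, in which 31969 of 32058 shared transcripts had identical coordinates. Named were, per mark, the 5 largest rises and 3 largest falls with adjusted p under 0.05, separate groups and at least 10 reads in every library of the higher group (no fall met this), the 5 strongest and 3 widest peaks, and up to 3 genes per pathway list by mean level. The peak of 1 gene that this rule names, and peaks beside that gene's start, are not reported here. The code was tested on simulated data. Intervals are 95% Wilson and cover counting error only, since duplicate fragments are not independent. Alternatives were other pseudocounts, filters, scalings, thinning, GC correction, a replicate block and leaving out each library.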

Additional observations from a re-analysis of the deposited data

How the results depend on the processing

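The differences between marks kept their direction under every alternative run. Without 1 library they ranged from 0.468 to 0.535 at 5 mM and from 0.582 to 0.646 at 25 mM. The glucose difference in the share of reads ranged from 0.512 to 0.572 percentage points for H3K18La and from 0.905 to 1.28 for H3K27Ac without 1 library, but reversed to -0.0436 and -0.107 as a share of the reads in all peaks. The glucose difference in the H3K18La contrast, -0.02, was 0.0135 against coding-exon peaks, -0.0496 with a minimum mean RPKM of 1 and -0.0575 to 0.00606 without 1 library, and that of H3K27Ac, 0.09, was 0.0529 to 0.12 without 1 library, 0.0480 against coding-exon peaks and 0.21 as a difference of mean log2(RPKM + 0.5). The exact permutation tests of 3 against 3 or fewer libraries could not pass 0.05, so they say nothing about stability.

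For H3K18La the 562 calls became 0 after scaling to reads in peaks, 125 after centring on the median of all peaks, 263 after thinning all libraries to the smallest denominator, 298 at a threshold of 0.01, and 312 to 529 without 1 library. For H3K27Ac the 501 calls became 0 with a pseudocount of 0.1, without robust moderation, after scaling to reads in peaks, after thinning, and without any 1 library (0 to 0). They became 126 after centring on the median and 4 at a threshold of 0.01. Those counts of 0 from limma went with 972, 868, 390 and 877 3' UTR peaks at an unadjusted p under 0.05 in the order given, and 258 for the scaled H3K18La fit, while voom called 713 and 608. The interaction was 0 throughout, also without 1 library. Scaling to reads in peaks moved the median log2 fold change of all peaks from 0.76 to -0.07 for H3K18La and from 0.58 to -0.30 for H3K27Ac, and centring on the median to 0.13 and 0.14. The cause was not tested.

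Replicate numbers did not pair the libraries: same-numbered libraries deviated together with correlations of 0.03, 0.01 and 0.02 for H3K18La and 0.02 for H3K27Ac, and not every library correlated best with its own number. With the replicate block 460 H3K18La and 232 H3K27Ac peaks were called, with the block and a GC correction 453 and 230, and 0 for the interaction. Averaging H3K18La replicates 2 and 3 at 5 mM gave 532.

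Of the named peaks' results under the alternatives, 996 kept direction and side of the threshold, 441 were no longer past it, 12 newly passed it and 27 reversed, of which H3K18La at Hdac7 was the only value called on the deposited scale. After scaling to reads in peaks the log2 fold changes were, for H3K18La, Tsix -0.49, Pde6b -0.23, Rbp3 -0.25, Igf1r -0.0051, Hdac7 -0.094, Snap25 -0.11 and Arc -0.22, and for H3K27Ac, Eipr1 -0.12, Crb1 -0.088, Rptor -0.27, Hdac5 -0.49, Hdac7 -0.13 and Snap25 -0.98. After centring on the median they were Tsix -0.26, Snap25 -0.25 and Arc -0.46 for H3K18La and Snap25 -0.26 for H3K27Ac, and with voom Snap25 -0.11 and Arc -0.14 for H3K18La. Without 1 library, H3K18La ranged from -0.13 to 1.13 at Tsix, from -0.88 to 0.33 at Crb1, from -0.068 to 1.09 at Snap25 and from -0.12 to 0.77 at Arc, and H3K27Ac from -0.040 to 0.38 at Snap25. Depth limits the H3K18La libraries most, where 1 to 5 reads lay in the median peak.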

Other observations

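Some 3' UTR peaks lay close to photoreceptor genes other than the gene they are named for. This group was chosen after its values were seen, so the counts are a description. Among the 3' UTR peaks, 11 that carry another gene's name lay within 20 kb of the start of 8 listed photoreceptor genes. They were 2 peaks of Ubr2 near Prph2, 2 of Glp2r near Rcvrn, 2 of Thsd4 near Nr2e3, and 1 each of 2610528A11Rik near Cdhr1, Sema3f near Gnat1, Atg16l1 near Sag, Senp7 near Impg2 and Foxn1 near Unc119. Gnat1 encodes the rod transducin, Sag encodes arrestin, and Nr2e3 is a nuclear receptor of rods. H3K18La rose in 10 of the 11 and H3K27Ac in 5, with median log2 fold changes of 1.89 and 1.31. Of the 645 3' UTR peaks within 20 kb of the start of any other gene that is not their own, 123 (19.1%) rose in H3K18La and 128 (19.8%) in H3K27Ac, with medians of 0.75 and 0.82. The groups also differed in strength, with a median level of 7.31 RPKM against 1.83 RPKM, and the part of level in the difference was not tested.

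The largest H3K18La change among the 11 was at Foxn1, at chr11:78358452-78358872, 11786 bp from the start of Unc119, a photoreceptor lipid-binding protein (log2 fold change 3.66, adjusted p = 0.000315, limma). The 1 peak of the 11 that did not pass for H3K18La was a peak of Glp2r, 13080 bp from the start of Rcvrn (log2 fold change 1.11, adjusted p = 0.0697, limma).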
